A study of Mus musculus with 12 samples.

Results

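The genes described here are 39 mouse genes of the interferon response, picked by gene symbol from the 35976 symbols counted in each of 12 RNA libraries of blood stem and progenitor cells. The libraries came from haematopoietic stem cells (HSCs), sorted as lineage-negative cells carrying c-Kit and Sca-1 from mice, and they were read as tags from the 3′ ends of transcripts. They formed 6 groups of 2 libraries. Stimulated cells of animals aged 2 months had spent 24 hours with cytokines outside the body, as Cd38 knockout (KO) and wild type (WT). Old fresh cells came straight from animals aged 24 months, again KO and WT, and young fresh cells came straight from animals aged 2 months, also KO and WT. The protein CD38 sits in the cell membrane and breaks down NAD, and the study asked how it acts on stem cells at rest, under cytokines and in age. The knockout allele, the strain, the cytokines and whether a library came from 1 animal or a pool are not given in the sources used here, so p-values measure the spread between libraries, which may be technical.

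Interferons are secreted proteins that warn cells of infection. Type I interferons bind the receptor made of IFNAR1 and IFNAR2, whose kinases JAK1 and TYK2 set off the signal. A factor that contains STAT2 and IRF9 then binds a DNA sequence called the interferon-stimulated response element (ISRE), while interferon gamma acts on gamma-activated sites (GAS). The genes switched on make proteins that sense foreign RNA, block viral entry, degrade viral RNA or tag proteins with ISG15. In blood, interferon is known to push resting stem cells into division, and stem cells are also known to hold some of these genes on without infection, among them the Ifitm genes, whose membrane proteins block the fusion of enveloped viruses.

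The promoters of the genes on which the results turn are shown because the genes share a pathway but not the same promoter letters. RefSeq promoter windows of GRCm38.p6, the build of the files (mm10), run from 250 bases before to 50 bases after a gene's start, and 31 of the 39 genes had one. The letters searched on both strands were GAAANNGAAA for the ISRE core and TTCNNNGAA for the GAS. An ISRE core lay in the windows of 14 of the 31 genes (45.2%), against 3.99% of 27025 genes with a window. GAS letters lay in those of 8 genes (25.8%), against 9.55%. The first 3 sequences belong to the Ifitm cluster on chromosome 7, and Isg15 and Ifi44 follow. All read 5′ to 3′ on the gene's strand, with ISRE cores in capitals.

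Ifitm3, chr7:141010695-141010994, minus strand: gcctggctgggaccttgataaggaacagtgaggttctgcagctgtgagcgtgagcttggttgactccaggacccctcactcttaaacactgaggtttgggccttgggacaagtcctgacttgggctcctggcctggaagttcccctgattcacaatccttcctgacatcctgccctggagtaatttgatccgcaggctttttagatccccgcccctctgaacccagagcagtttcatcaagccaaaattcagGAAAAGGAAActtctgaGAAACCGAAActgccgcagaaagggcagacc
Ifitm1, chr7:140967826-140968125, plus strand: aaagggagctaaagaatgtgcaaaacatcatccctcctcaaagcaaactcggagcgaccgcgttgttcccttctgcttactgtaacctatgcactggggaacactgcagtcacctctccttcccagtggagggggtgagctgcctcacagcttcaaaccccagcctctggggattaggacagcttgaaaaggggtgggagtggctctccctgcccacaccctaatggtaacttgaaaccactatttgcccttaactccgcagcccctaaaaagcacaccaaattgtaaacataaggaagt
Ifitm2, chr7:140955912-140956211, minus strand: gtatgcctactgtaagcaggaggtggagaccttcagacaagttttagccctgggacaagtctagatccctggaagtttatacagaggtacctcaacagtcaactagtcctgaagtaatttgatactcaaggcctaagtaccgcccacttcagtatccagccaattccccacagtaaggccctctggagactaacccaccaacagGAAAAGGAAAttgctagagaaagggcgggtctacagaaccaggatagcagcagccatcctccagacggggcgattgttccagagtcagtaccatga
Isg15, chr4:156200769-156201068, minus strand: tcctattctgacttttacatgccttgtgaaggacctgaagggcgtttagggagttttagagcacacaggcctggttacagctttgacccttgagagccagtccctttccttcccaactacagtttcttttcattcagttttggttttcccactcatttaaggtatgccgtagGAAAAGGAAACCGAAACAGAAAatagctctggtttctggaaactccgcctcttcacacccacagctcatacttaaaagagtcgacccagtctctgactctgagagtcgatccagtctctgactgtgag
Ifi44, chr3:151749861-151750160, minus strand: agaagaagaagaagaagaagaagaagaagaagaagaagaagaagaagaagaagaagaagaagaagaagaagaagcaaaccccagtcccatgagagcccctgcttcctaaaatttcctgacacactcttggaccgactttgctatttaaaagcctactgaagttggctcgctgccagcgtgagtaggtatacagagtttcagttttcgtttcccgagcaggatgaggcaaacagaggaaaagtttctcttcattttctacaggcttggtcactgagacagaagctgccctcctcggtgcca

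Ifitm3 held 2 cores, at bases 253 and 270 of its window, and a GAS match at base 264 that overlapped the second core. Ifitm2 held 1 core, 46 bases before its start, and Ifitm1 had no match in its window, which follows RefSeq's start and lies inside the gene as GENCODE places it, so it says nothing of the other start. Isg15 held 3 overlapping cores, at 78, 72 and 66 bases before its start, and Ifi44 had no exact core. Among the 31 genes, 7 held at least 2 cores, and Ifitm3, Oas1a and Bst2 were the 3 that held both kinds of letters. A match describes the letters only and does not show a bound factor.

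Levels are given as CPM, a gene's count over the effective size of its library. Each transcript gives a tag at its 3′ end, so CPM does not grow with transcript length. Library totals ran from 2692245 to 3249721 counts in stimulated cells, from 3796591 to 5164720 in old fresh cells and from 1600155 to 1963635 in young fresh cells. Every old library was deeper than every young one, so age cannot be told apart from depth. Replicates of a stimulated group were alike, with a common dispersion of 0.0391 in KO and 0.0327 in WT cells, while in fresh groups it lay between 0.963 and 1.337. Malat1, a nuclear RNA, stood at 892 to 1089 CPM in stimulated, 339 to 588 in old fresh and 4084 to 8569 in young fresh cells, and neutrophil markers summed to 1618 to 2882, 366 to 3179 and 5015 to 9582 CPM. Young fresh WT replicate 1 had no Xist counts and 200 CPM of Y-linked genes, unlike the other 11 libraries. Cd38 itself had 3.59 and 2.32 CPM in stimulated KO against 0.998 and 8.58 in stimulated WT, 13.2 and 19.9 in old KO against 74.4 and 41.4 in old WT, and 62.8 and 31.9 in young KO against 17.6 and 24.6 in young WT. The deleted part of the gene was not given in the sources used here, so its 3′ tags do not check the labels.

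The highest of the 39 genes on average were Ifitm3 (346 CPM over all libraries), Ifitm1 (171), Rtp4 (146), Bst2, Irf1 and Lgals3bp. Rtp4 encodes an interferon-induced transporter of receptors, Bst2 the tetherin that holds budding viruses on the cell, Irf1 a transcription factor and Lgals3bp a secreted binding partner of galectins. At the other end stood classical markers of a strong interferon response. Mx1, a GTPase that blocks influenza-like viruses, had 1 count in all 12 libraries together. Mx2 had 4 counts, and Xaf1, a partner of the apoptosis inhibitor XIAP, had 26, all of them in stimulated cells. Oas2 had 60 counts, of which 55 lay in young fresh KO replicate 3. Of the 39 genes, 22 had a count in every library, 17 had 0 in at least 1 library, and none had 0 in all 12.

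**Figure D1:**
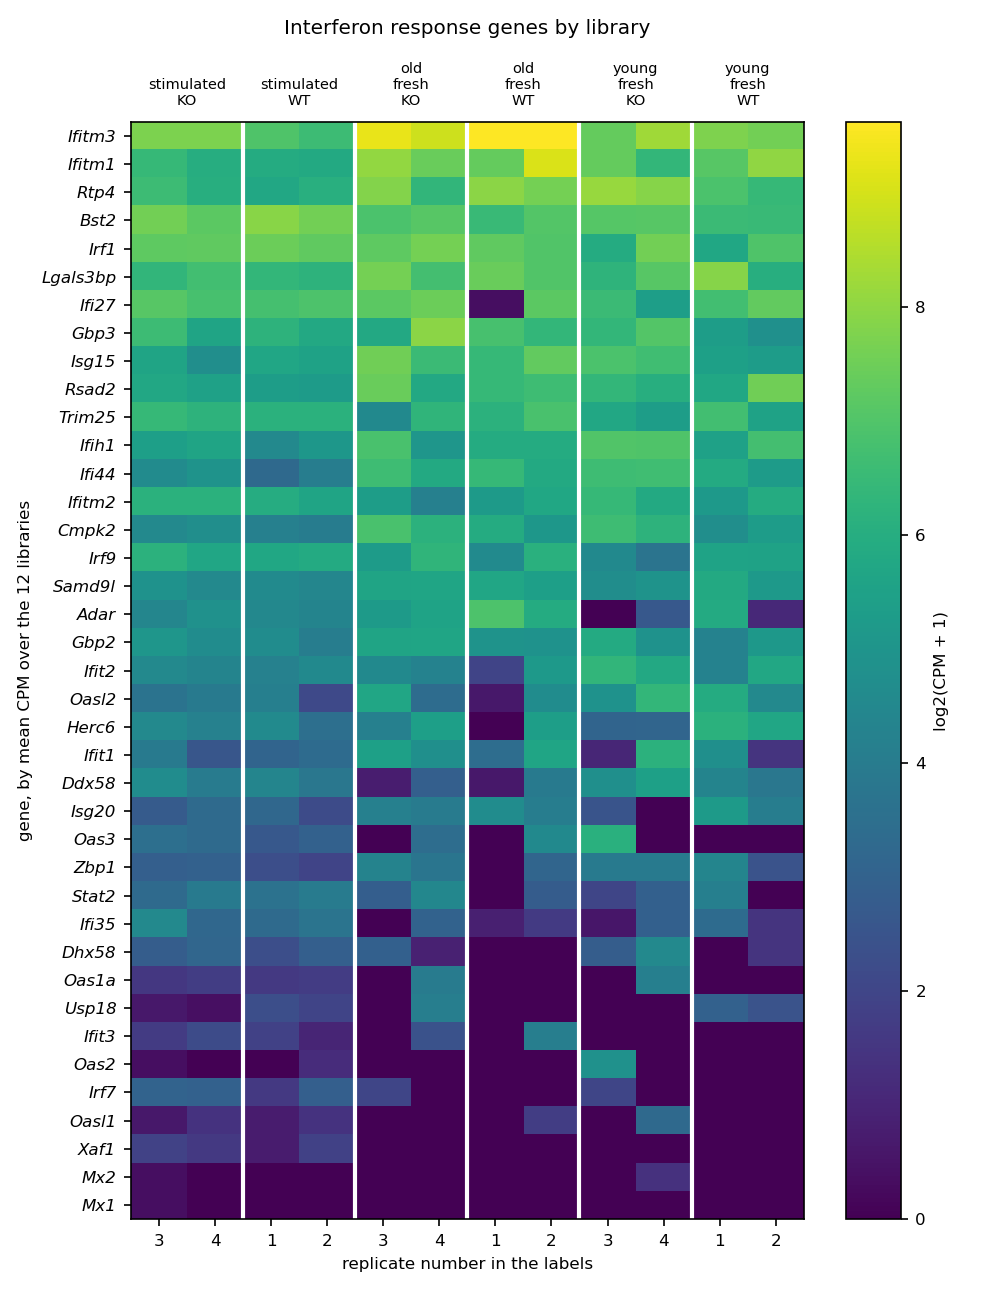
Heat map of log2(CPM + 1) for the 39 genes (rows, ordered by mean CPM) in the 12 libraries (columns, by group and replicate number). Ifitm3 is brightest in the 4 old fresh libraries, and dark cells (0 counts) scatter through the fresh libraries but hardly through the stimulated ones.

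In fresh cells, some genes of the list were counted in 1 replicate and missed, or nearly missed, in the other. Ifi27, a small interferon-induced membrane protein, had 624 and 843 counts in old KO libraries, against 1 and 482 counts in old WT libraries. Adar, which edits double-stranded RNA, had 0 and 10 counts in young fresh KO libraries and 92 and 2 counts in young fresh WT libraries. Herc6, the mouse ligase that attaches ISG15, stood at 17.1 and 42.4 CPM in old KO and at 0 and 41.4 CPM in old WT cells. Of the 39 genes, 2 in old KO, 3 in old WT, 3 in young KO and 1 in young WT cells were at 0 in 1 replicate and at 10 CPM or more in the other. None was so in the stimulated groups. Over all genes tested, 7.39%, 8.86%, 9.98% and 7.98% showed the same in these fresh groups. The 3 in young KO cells include Oas2, which was not among the genes tested. Such gaps were thus not particular to the list.

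Thinned by calculation to the depth of the shallowest library, 91.2% to 94.7% of the 39 genes would be detected in stimulated libraries, 60.0% to 84.0% in old and 74.3% to 79.5% in young fresh ones. For all genes tested the ranges were 97.0% to 97.9%, 78.2% to 83.1% and 76.0% to 83.1%. For the list and for all genes tested alike, detection was highest in the stimulated libraries. The list counts all 39 genes, also those too low in counts to be tested, so its percentages are not comparable in height with those of the genes tested. The lowest value, 60.0%, belonged to old fresh WT replicate 1.

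The summed level of the 39 genes was 1721 and 1492 CPM in stimulated KO and 1449 and 1313 CPM in stimulated WT cells. It was 2880 and 2404 CPM in old KO, 2475 and 3126 CPM in old WT, 2093 and 2235 CPM in young KO, and 1816 and 1798 CPM in young WT cells. The 4 old libraries were all above the 4 young fresh ones, and the stimulated ones all below them. In bulk libraries, fewer cells expressing a gene and less of its RNA per cell cannot be told apart. Ifitm3 alone made up 7.34% to 14.2% of the sum in stimulated, 19.4% to 31.8% in old fresh and 7.71% to 13.6% in young fresh libraries. Without Ifitm3 the old libraries summed to 1688 to 2358 CPM, against 1602 to 1932 CPM in the young fresh libraries, and these ranges overlapped. The module score, the mean log2(CPM + 1) over the 39 genes, gave no order by age: it was 4.20 and 4.45 in old KO and 3.34 and 4.45 in old WT, against 4.13 and 4.28 in young KO and 4.11 and 3.73 in young WT cells. In stimulated cells it was 4.27 and 4.11 in KO, against 3.97 and 3.95 in WT, without overlap. The same mean over all genes tested also did not overlap there, at 4.628 and 4.634 in KO against 4.611 and 4.615 in WT.

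**Figure D2:**
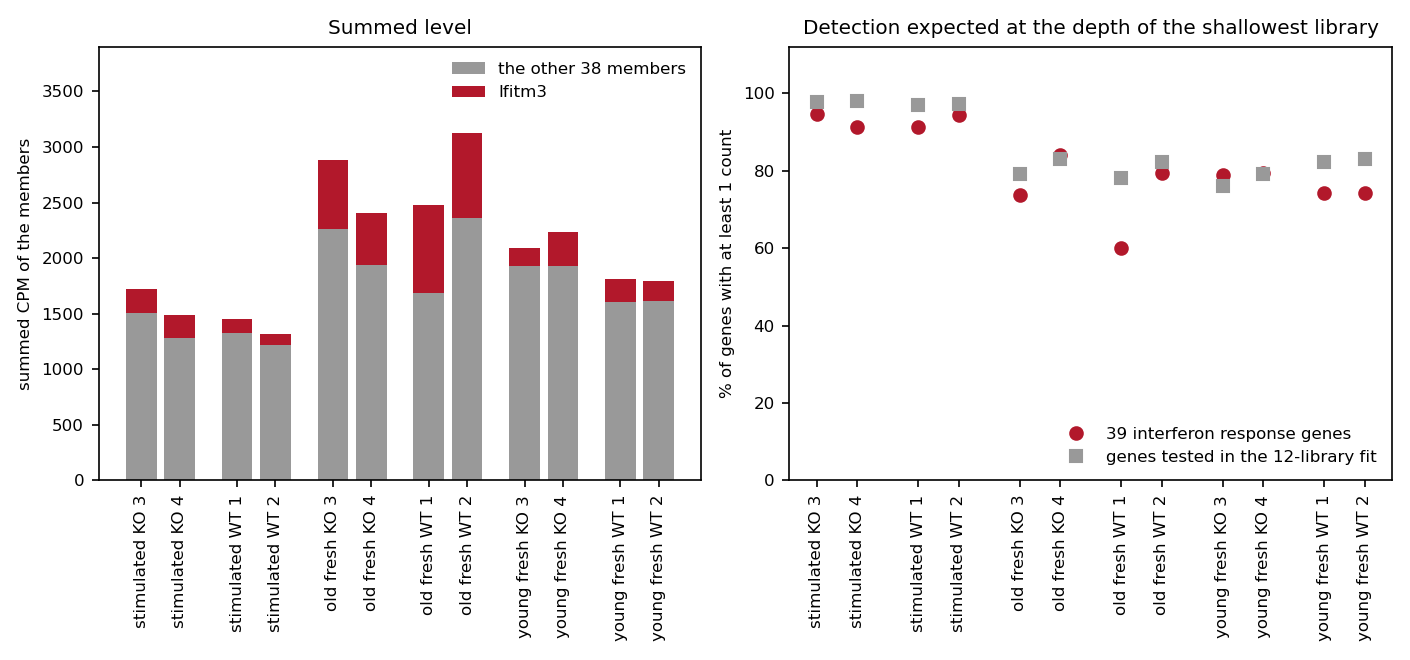
Left, bars of the summed CPM of the 39 genes per library, with the part of Ifitm3 in red; right, the percentage of genes with at least 1 count expected at the depth of the shallowest library (red circles, the 39 genes; grey squares, all genes tested). Old fresh bars are tallest and carry the widest red part (19.4% to 31.8%), and detection is highest in the stimulated libraries.

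Old fresh cells carried more Ifitm3 than young fresh cells. Ifitm3 (chr7:141009586-141010770, minus strand, GRCm38) had 622 and 467 CPM in old KO and 787 and 768 CPM in old WT cells, against 161 and 304 CPM in young KO and 214 and 188 CPM in young WT cells. All 4 old libraries lay above all 4 young ones. Ifitm3 rose by 1.59 ± 0.22 on the log2 scale (SE; edgeR's quasi-likelihood test over 12 libraries, Benjamini-Hochberg adjusted p = 0.000485), and its adjusted p was at most 0.00803 under the 14 alternatives run, which left out each of the 8 libraries in turn, the one without Xist included. It was the only one of the 34 members tested that passed the threshold for age, while 5% of all 11548 genes did (577 genes). Without overlap, 1 member was higher in old cells (4.51% of all genes) and none lower (3.33% of all genes). Depth and Malat1, given above, separated the ages as well, as did neutrophil markers and the mitochondrial share of counts (2.69% to 3.75% in old, 3.86% to 4.34% in young fresh libraries), and their part in the rise of Ifitm3 was not tested.

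Its neighbours did not pass the test. Ifitm1 (chr7:140967221-140969825, plus strand) had 267 and 170 CPM in old KO and 163 and 538 CPM in old WT cells, against 163 and 81.7 CPM in young KO and 140 and 260 CPM in young WT cells (0.82 ± 0.36, edgeR adjusted p = 0.211). The age groups overlapped, and without old WT replicate 2 the value was 0.26. Ifitm2 (chr7:140954837-140955987, minus strand), the closest relative of Ifitm3, stood at 17.4 to 52.2 CPM in old and at 34.5 to 86.8 CPM in young fresh cells, so it did not share the higher level of old cells. Ifitm2 and Ifitm3 are similar in sequence, as are Gbp2 and Gbp3, and how tags that match both were counted was not given in the sources used here.

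Other members with the smallest p-values for age also stayed below the threshold. Isg15, the ubiquitin-like tag, had 183 and 93.1 CPM in old KO and 87.1 and 160 CPM in old WT cells, against 118 and 102 CPM in young KO and 43.3 and 38.8 CPM in young WT cells (0.96 ± 0.37, edgeR adjusted p = 0.149). Young WT cells were low, and young KO cells lay within the old range. Gbp3, a guanylate-binding GTPase that attacks the vacuoles of intracellular pathogens, gave 1.01 ± 0.44 (adjusted p = 0.211 by edgeR), and 0.27 without old KO replicate 4, whose level was 245 CPM. Adar had 36.6 to 122 CPM in old cells and 0 to 57.7 CPM in young fresh cells (2.80 ± 1.02, edgeR adjusted p = 0.13), and it passed in 4 of the 14 alternatives, among them DESeq2 and leaving out young fresh WT replicate 1. The median change with age was 0.19 over the 34 members and 0.05 over all genes.

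**Figure D3:**
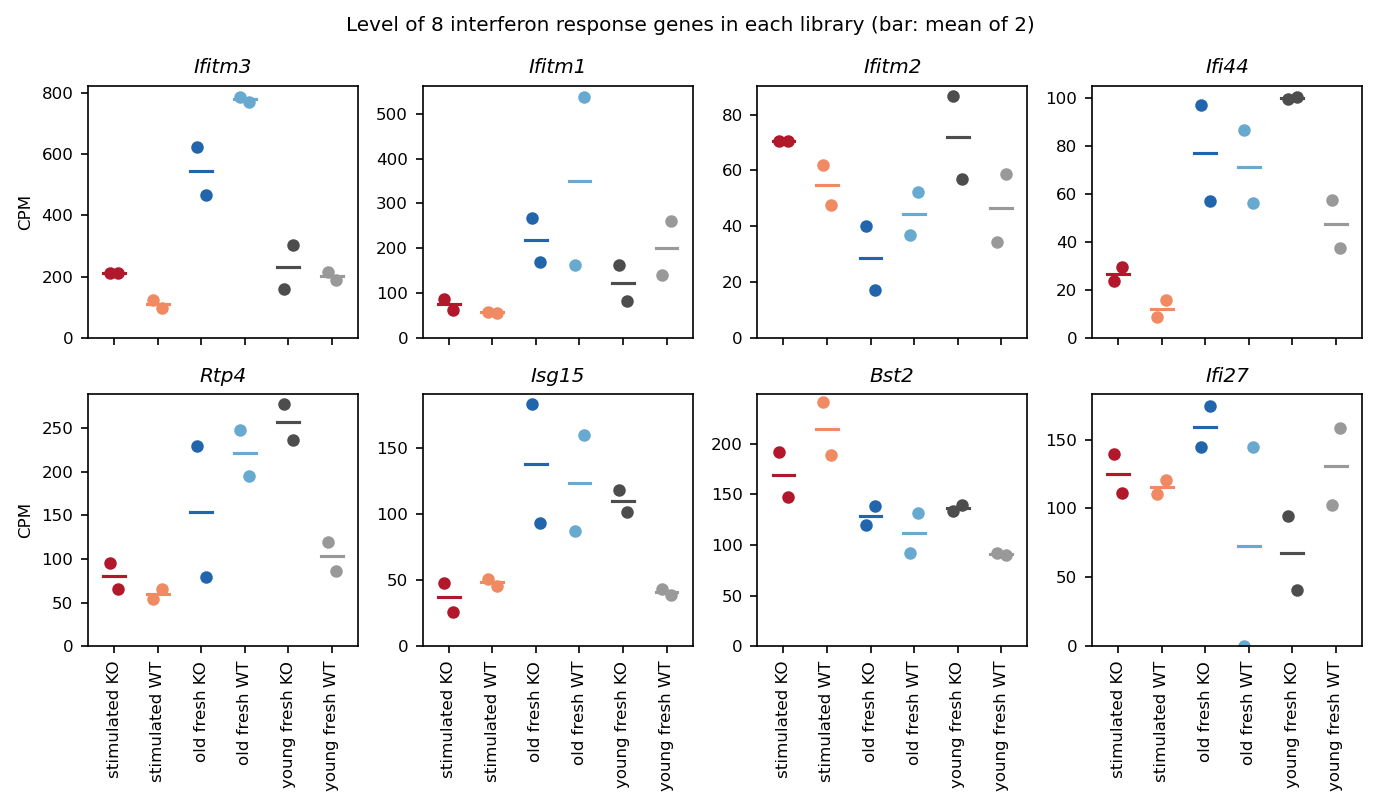
CPM (linear axes from 0) of 8 of the genes in each group; points are the 2 libraries and the bar is their mean. Ifitm3 is highest in old WT (787 and 768 CPM), Ifi44 is lowest in stimulated WT (8.65 and 15.8 CPM), and Ifi27 shows the old WT library with 1 count.

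In stimulated cells Ifitm3 was higher in KO than in WT, on the log2 scale by 0.96 ± 0.16 (SE; edgeR's quasi-likelihood test on the 4 stimulated libraries, adjusted p = 0.00938). Its level was 212 and 212 CPM in stimulated KO cells, against 125 and 96.4 CPM in stimulated WT cells. The KO libraries were as high as young fresh cells, and both WT libraries lay below every fresh library. Ifitm3 was the 1 member called of 31 tested, and 1.23% of all 10494 genes were called. The size of the difference barely moved when a KO library was left out, at 0.97 without replicate 3 and 0.95 without replicate 4, but adjusted p was then 0.0931 and 0.287. In a fit of all 12 libraries, whose spread is mostly that of fresh cells, it was 0.94 with adjusted p = 1, where no gene passed. Over the 9 alternatives adjusted p ran from 4.44e-06 to 1.

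Other members pointed the same way without passing the test. Ifi44, an antiviral protein of the cytoplasm, had 24.0 and 29.5 CPM in stimulated KO cells, against 8.65 and 15.8 CPM in stimulated WT cells (1.14 ± 0.36, edgeR adjusted p = 0.184). Ifih1, the RNA sensor MDA5, had 42.2 and 48.0 CPM in KO against 22.3 and 32.7 CPM in WT (0.74 ± 0.27, adjusted p = 0.263 by edgeR). Rtp4 gave 0.44 ± 0.22 and Ifitm1 0.41 ± 0.21 (edgeR adjusted p = 0.494 and 0.517). The groups did not overlap for Ifi44, Ifih1 and Ifitm1, whereas Rtp4 in KO replicate 4 (65.2 CPM) lay just under WT replicate 2 (66.0 CPM).

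Across the list, 11 of the 31 members had both KO libraries above both WT libraries, a pattern met by 19.5% of all genes. These were Ifitm1, Ifitm2, Ifitm3, Irf7, Oas3, Rsad2, Ifi44, Ifih1, Zbp1, Trim25 and Cmpk2. Irf7 is a transcription factor of the response, Oas3 makes the signal for RNase L, Rsad2 encodes viperin, Cmpk2 a nucleotide kinase, Zbp1 a sensor of unusual nucleic acids and Trim25 a ubiquitin ligase. Irf1 alone lay lower in both KO libraries, a pattern met by 22.6% of all genes, but only by a little (150 and 154 CPM in KO, 173 and 154 CPM in WT). Of the 31 changes 27 were positive, with a median of 0.32, while 49.98% of all genes were positive, with a median of 0. Without KO replicate 3 the count of positive members was 21 and their median 0.16. Isg15 and Bst2 ran the other way, at -0.35 ± 0.28 and -0.32 ± 0.17, also below the threshold (edgeR adjusted p = 0.727 and 0.538).

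Markers of cell makeup moved beside these values. The 8 neutrophil markers, of which Ly6g had 0 counts in all 4 libraries, summed to 2277 and 1618 CPM in stimulated KO cells and to 2587 and 2882 CPM in stimulated WT cells. The 10 markers of the sorted cells summed to 1848 and 1913 CPM in KO and to 1835 and 1961 CPM in WT, but the sum hides markers that ran opposite ways without overlap. Cd34 had 564 and 371 CPM in KO against 841 and 795 CPM in WT, and Flt3, a receptor of early multipotent progenitors, had 61.8 and 46.4 CPM in KO against 137 and 240 CPM in WT. Procr, a surface marker of stem cells, had 111 and 101 CPM in KO against 69.9 and 51.8 CPM in WT, Mecom 78.4 and 127 CPM in KO against 54.2 and 38.6 CPM in WT, Hlf 469 and 530 CPM in KO against 334 and 447 CPM in WT, and Kit 260 and 330 CPM in KO against 191 and 212 CPM in WT. Of all genes tested, 19.5% lay higher and 22.6% lower in KO without overlap, so such markers alone do not show a different makeup. Nor can the makeup of the sorted cells be taken as equal between the genotypes. Ly6a encodes Sca-1, which was part of the sort and is itself induced by interferon, and had 103 and 71.9 CPM in KO against 58.6 and 39.3 CPM in WT (0.86 ± 0.24, edgeR adjusted p = 0.119). The 7 markers of plasmacytoid dendritic cells, the main makers of type I interferon, summed to 483 and 431 CPM in KO and to 575 and 645 CPM in WT. That list holds Bst2, one of the 39 genes, and Irf8, described further on, and without them it summed to 256 and 256 CPM in KO and to 259 and 382 CPM in WT. Its defining marker Siglech was at 0 and 1.66 CPM in KO and at 0 and 0.990 CPM in WT. Erythroid markers summed to 176 and 278 CPM in KO against 310 and 399 CPM in WT. T and NK markers summed to 151 and 118 CPM in KO against 240 and 161 CPM in WT. Nkg7 made most of that sum, at 141 and 93.7 CPM in KO against 227 and 145 CPM in WT. Lck was also lower in KO (3.04 and 5.30 against 8.98 and 13.5 CPM). Klrb1c ran the other way, at 6.62 and 18.9 CPM in KO against 2.66 and 1.98 CPM in WT. The neutrophil, plasmacytoid, erythroid and T and NK lists thus summed lower in both KO libraries, while other lists overlapped. B and plasma markers summed to 126 and 446 CPM in KO against 110 and 149 CPM in WT. Monocyte and macrophage markers summed to 136 and 105 CPM in KO against 115 and 129 CPM in WT. Endothelial and stromal markers summed to 34.5 and 46.7 CPM in KO against 39.3 and 29.4 CPM in WT. The part of cell makeup in the result was not tested.

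With stimulation 1 member was called lower, and 16 changes were positive and 18 negative. Ifi44 had 24.0 and 29.5 CPM in stimulated KO and 8.65 and 15.8 CPM in stimulated WT cells, against 99.5 and 101 CPM in young fresh KO and 57.7 and 37.7 CPM in young fresh WT cells. All 4 stimulated libraries lay below all 4 fresh ones, in both genotypes. Ifi44 fell by 1.93 ± 0.45 on the log2 scale (SE; edgeR over 12 libraries, adjusted p = 0.0315) and was the 1 member called of 34, against 2.81% of all genes. Its call ended without young fresh WT replicate 1 (adjusted p = 0.0758) and without each of the stimulated libraries (0.1 to 0.231), while the change stayed between -2.18 and -1.74. Over the 14 alternatives its adjusted p ran from 0.000492 to 0.231. Other measures separated the same libraries: the mitochondrial share was 2.93% to 3.18% in stimulated and 3.86% to 4.34% in young fresh libraries, T and NK markers summed to 118 to 240 CPM in stimulated and 14.3 to 38.8 CPM in young fresh libraries, and Malat1 and the neutrophil sum are given above. Within that lower neutrophil sum, the granule genes of early myeloid cells ran upwards, Elane at 326 to 615 CPM in stimulated and 17.3 to 35.1 CPM in young fresh libraries and Mpo at 544 to 1089.6 CPM in stimulated and 35.1 to 62.8 CPM in young fresh libraries. Nkg7 alone made most of the T and NK sum, at 93.7 to 227 CPM in stimulated and 13.7 to 34.7 CPM in young fresh libraries. Cd3e, Cd4 and Cd8a were at 0 CPM in all of them. The 10 markers of the sorted cells summed to 1835 to 1961 CPM in stimulated and 2256 to 2415 CPM in young fresh libraries. Among them Hlf was lower in stimulated libraries (334 to 530 against 787 to 984 CPM). Flt3 was higher there (46.4 to 240 against 7.53 to 24.6 CPM), and the other markers of that list overlapped. The part of these measures in the change of Ifi44 was not tested.

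Next in order came Rtp4, at 95.5 and 65.2 CPM in stimulated KO and 54.2 and 66.0 CPM in stimulated WT cells, against 278 and 237 CPM in young fresh KO and 119 and 86.8 CPM in young fresh WT cells. Its change was -1.23 ± 0.32 with an edgeR adjusted p of 0.0564, just above the threshold, and it passed in 6 alternatives, among them RLE scaling (0.0438), DESeq2 (0.00803) and limma voom (0.0221). Ifitm1 had -1.25 ± 0.37 (edgeR adjusted p = 0.1) and passed in 4 alternatives, among them DESeq2 and voom. Ifih1 had -1.47 ± 0.46 (edgeR adjusted p = 0.125) and passed with DESeq2 and voom. Ifitm3 had -0.50 ± 0.21 (edgeR adjusted p = 0.238).

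Not all members ran downwards with stimulation. Bst2 had 191 and 147 CPM in stimulated KO and 241 and 188 CPM in stimulated WT cells, against 133 and 140 CPM in young fresh KO and 92.2 and 89.7 CPM in young fresh WT cells. Every stimulated library lay above every fresh one, and the change was 0.77 ± 0.25 (edgeR adjusted p = 0.129). Without overlap, 3 members were higher in stimulated cells (Bst2, Irf9 and Ifit3), a pattern of 14.6% of all genes, and Oasl2 and Ifi44 were the 2 lower, a pattern of 5.16% of all genes. Ifit3 had only 0.990 to 3.64 CPM in stimulated libraries and 0 counts in the young fresh ones. A young fresh library allows up to 1.53 to 1.88 CPM (3 counts, counting error only), so the place of Ifit3 here is not firm. Irf9 is the DNA-binding part of the type I interferon factor, Ifit3 belongs to a family that binds viral RNA, and Oasl2 is a relative of the OAS enzymes. The median change was -0.24 over the 34 members, or -0.38 with the 5 members at 0 in a whole group set to a floor of 3 counts, while all genes had a median of 0.27. The members' median was 0.09 with voom and 0.07 without young fresh WT replicate 1, so its sign was not stable. The median of all genes moved too, to 0.58 and 0.40, and stayed above that of the members in both.

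**Figure D4:**
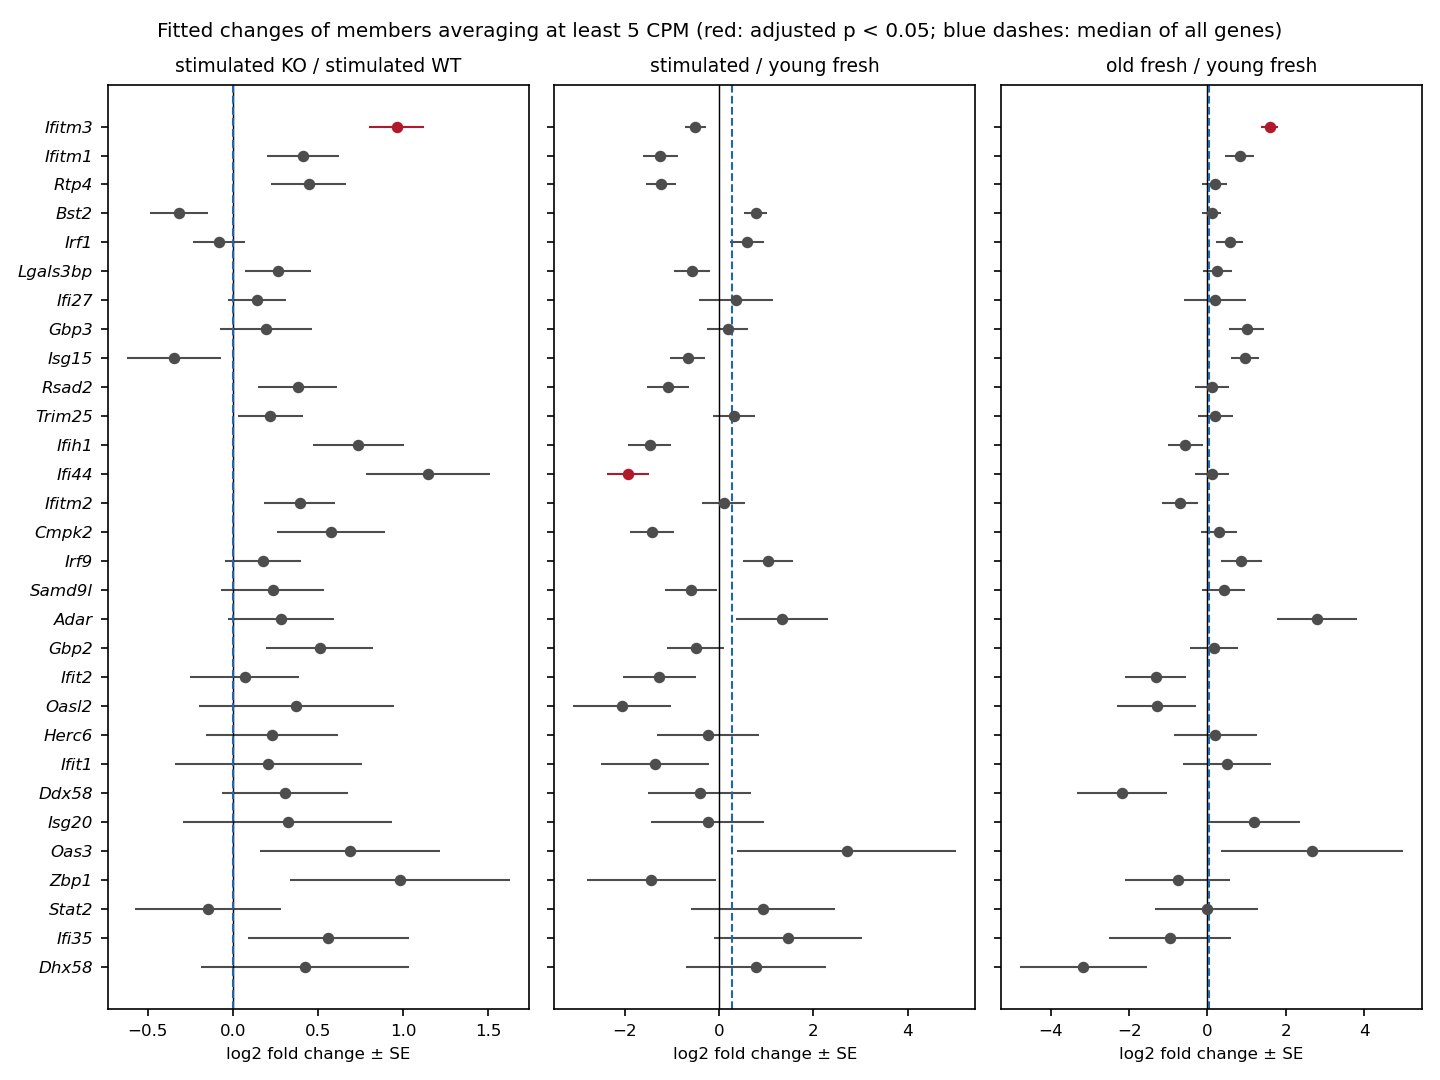
Log2 fold changes ± SE (x axis) of the members averaging at least 5 CPM (rows, by mean CPM) in stimulated KO over stimulated WT, stimulated over young fresh, and old fresh over young fresh; red marks an adjusted p under 0.05 and the blue dashed line the median of all genes. Ifitm3 stands out at 0.96 and 1.59 and Ifi44 at -1.93, and most other SE bars reach near the median line.

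In fresh cells no member differed between genotypes by the test, in young or in old animals. In young fresh cells 0.026% of all genes were called (3 genes) and none of the 34 members, of which 5 had an unadjusted p under 0.05, as did 10.7% of all genes; DESeq2 and voom called no member either. Isg15 had 118 and 102 CPM in young KO cells, against 43.3 and 38.8 CPM in young WT cells (1.42 ± 0.53, edgeR adjusted p = 0.422). Rtp4, at the CPM given above, had 1.32 ± 0.45 (edgeR adjusted p = 0.403), and Gbp3 had 81.1 and 132 CPM in KO against 40.1 and 27.4 CPM in WT (1.66 ± 0.64, edgeR adjusted p = 0.427). Both KO libraries lay above both WT libraries for these 3 genes and for Ifit2, Bst2, Ifi44, Ifih1, Ddx58, Dhx58 and Cmpk2, 10 of 34 members, a pattern of 13.9% of all genes. Both lay below for 6 members (Irf9, Isg20, Usp18, Ifi27, Herc6 and Samd9l), a pattern of 16.6% of all genes. None of these differences passed the test. Adar gave -3.47 ± 1.51 (edgeR adjusted p = 0.452), which was 1.16 without WT replicate 1. Oas3 had 133 and 0 counts in KO and 0 and 0 counts in WT, so its difference rested on 1 library and has no fold here. The median over members was 0.47 and that of all genes 0; without young KO replicate 4 the members' median was -0.15.

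In old fresh cells 0.0433% of all genes were called (5 genes) and again none of the 34 members, with 2 at an unadjusted p under 0.05 (11.1% of all genes) and none called by DESeq2 or voom. Ifitm3 ran against its direction in stimulated cells, with 622 and 467 CPM in old KO and 787 and 768 CPM in old WT cells (-0.51 ± 0.30, edgeR adjusted p = 0.528). Both KO libraries lay below both WT libraries for Ifitm3 and Adar, 2 of 34 members (15.8% of all genes), and above them for Stat2, Dhx58, Zbp1, Cmpk2 and Gbp2, 5 members (15.6% of all genes). Cmpk2 gave 1.00 ± 0.65, Trim25 -0.91 ± 0.63, Ifitm1 -0.68 ± 0.51 and Rtp4 -0.52 ± 0.44, with edgeR adjusted p of 0.6 to 0.751. Without old WT replicate 2 Ifitm1 stood at 0.44, and Ifi27 was then called higher in KO, since that left the WT library with 1 count. The median was 0.26 over the members and 0 over all genes, and -0.10 over the members without old KO replicate 3.

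Whether the genotypes differed in their response was tested directly. No gene of 11548 (0%) and no member passed for the difference between the KO effect in stimulated and in young fresh cells, with 1 member and 577 of all genes at an unadjusted p under 0.05; DESeq2 called 32 genes and voom 0, none of them a member. Isg15 had the smallest p among the members (-1.79 ± 0.74, edgeR adjusted p = 0.885), followed by Bst2 (-0.93 ± 0.49, adjusted p = 0.885 by edgeR). Adar gave 3.73 ± 1.98 (edgeR adjusted p = 0.885), and Oas3, at 0 in young WT cells, has no fold here. Ifitm3 gave 0.73 ± 0.43 (edgeR adjusted p = 0.895), so its KO difference in stimulated cells is not shown to differ from that in fresh young cells. For the KO effect in old against young cells 0.0346% of all genes passed (4 genes) and no member, with 3 at an unadjusted p under 0.05 (12.2% of all genes), and none by DESeq2 or voom. These 3 were Rtp4, Oas3 and Usp18, of which Oas3 and Usp18 were at 0 in a whole group and have no fold here. Rtp4 gave -1.84 ± 0.64 (edgeR adjusted p = 0.312), Isg15 -1.26 ± 0.73 and Ifitm3 -0.72 ± 0.42 (edgeR adjusted p = 0.516 and 0.522). Irf9 gave 1.73 ± 1.05 (edgeR adjusted p = 0.541). For Rtp4 both KO libraries lay above both WT libraries in young cells, while in old cells the genotypes overlapped.

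The other members were not called by edgeR with all libraries. Cmpk2, whose gene lies beside Rsad2, had 22.4 and 25.8 CPM in stimulated KO and 17.3 and 15.5 CPM in stimulated WT cells, 115 and 71.0 CPM in old KO and 59.8 and 32.7 CPM in old WT, and 99.5 and 73.8 CPM in young KO and 25.7 and 39.4 CPM in young WT cells. Both KO libraries lay above both WT libraries in each of the 3 settings, but none of these differences passed the test. Of all genes tested, 19.5% met this pattern in stimulated, 15.6% in old fresh and 13.9% in young fresh cells. The share that met it in all 3 settings was not counted. DESeq2 called Cmpk2 lower in stimulated than in young fresh cells. Rsad2 stood at 37.97 to 54.1 CPM in stimulated, 55.6 to 169 CPM in old and 52.7 to 185 CPM in young fresh cells. Herc6 had 7.66 and 7.85 CPM in young KO against 69.0 and 51.4 CPM in young WT cells, and Irf9 had 23.0 and 12.04 CPM in young KO against 46.4 and 45.1 CPM in young WT cells, both without overlap, as counted above. Trim25 ranged over 22.5 to 115 CPM, Lgals3bp over 65.1 to 232 CPM, Oasl2 over 0.531 to 82.7 CPM, Zbp1 over 0 to 20.1 CPM and Irf7 over 0 to 7.45 CPM. Ifitm2, Rtp4, Herc6 and Irf9 overlap another annotated gene on the same strand, and Irf1, Irf7, Usp18, Oasl1, Ifi35, Dhx58, Adar and Gbp2 one on the opposite strand, so their counts could hold reads of that gene.

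The remaining members were low or scattered. Ddx58 and Dhx58, the RNA sensors RIG-I and LGP2, reached at most 43.5 and 22.0 CPM, and Stat2 at most 20.9 CPM. Usp18, which removes ISG15 and restrains the receptor, had 0.552 and 0.331 CPM in stimulated KO and 3.99 and 2.97 CPM in stimulated WT cells, too few for the test there. Oas1a, the enzyme that makes the RNase L signal, was at 1.93 to 2.32 CPM in all 4 stimulated libraries and at 0 in 6 of the 8 fresh ones. Ifit1 and Ifit2, which bind viral RNA, ranged over 1.02 to 72.2 CPM and 2.92 to 80.1 CPM. Isg20, an exonuclease, ranged over 0 to 37.0 CPM, and Samd9l, a restrictor of growth and of poxviruses, over 20.5 to 57.1 CPM. Gbp2, Ifi35 and Oasl1 stood at 15.8 to 58.2, 0 to 21.8 and 0 to 8.90 CPM.

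The ligands themselves were not seen. None of the 21 type I, type III and gamma interferon genes had a count in any of the 12 libraries, which allows each up to 0.828 to 0.998 CPM in a stimulated, 0.621 to 0.901 CPM in an old and 1.53 to 1.88 CPM in a young fresh library (3 counts, counting error only). Receptors and kinases were counted unevenly. Ifnar1, a chain of the type I receptor, had 0 counts in old KO replicate 3 and 1 count in young KO replicate 3, Ifngr2 had 0 counts in 4 fresh libraries, and Ifnlr1 of the lambda receptor had 3 counts in all 12 libraries together. Jak1 was the highest, at 397 to 467 CPM in stimulated, 351 to 490 CPM in old and 436 to 481 CPM in young fresh cells, and Ifnar2 had 73.8 to 168 CPM in all libraries but old WT replicate 1, where it had 3.72 CPM. None of the 8 receptor and kinase genes tested was called in any of the 7 comparisons, nor any of the 14 or 15 sensors and adaptors, nor any of the 11 negative regulators. Il10rb, a chain of the interferon lambda receptor, had the smallest p of the receptors in stimulated cells, with 75.1 and 49.01 CPM in KO against 92.2 and 136 CPM in WT (-0.85 ± 0.23, edgeR adjusted p = 0.112).

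Of 33 other interferon-induced genes tested, 1 rose and 1 fell with age, where 5% of all genes were called, and none passed elsewhere. Slfn5, a Schlafen family gene, had 141 and 151 CPM in old KO and 106 and 232 CPM in old WT, against 98.5 and 9.95 CPM in young KO and 30.7 and 29.1 CPM in young WT (1.96 ± 0.53, edgeR adjusted p = 0.0481). Ifi203, a nuclear DNA-binding family member, had 224 and 227 CPM in old KO and 243 and 240 CPM in old WT, against 468 and 592 CPM in young KO and 406 and 276 CPM in young WT (-0.86 ± 0.19, edgeR adjusted p = 0.0137). Both genes separated the ages without overlap. The call for Slfn5 ended in 6 of the fits that left out 1 library, at adjusted p up to 0.141 by edgeR, and also with RLE sizes (0.0512), with voom (0.0872) and on the 8 fresh libraries alone (0.0739). That for Ifi203 ended with voom (0.105) and on the fresh libraries alone (0.0647).

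Genes best known for interferon gamma gave calls in stimulated cells. Of 23 tested there between genotypes, 2 were higher and 1 lower in KO, where 1.23% of all genes were called. Iigp1, an immunity-related GTPase, had 127 and 85.1 CPM in stimulated KO, against 46.9 and 47.2 CPM in stimulated WT (1.20 ± 0.22, edgeR adjusted p = 0.0143). Its relative Irgm2 had 69.3 and 50.3 CPM in KO against 25.3 and 22.8 CPM in WT (1.3399 ± 0.25, edgeR adjusted p = 0.0168). Irf8, a transcription factor of the monocyte and dendritic lineages, had 35.6 and 26.8 CPM in KO against 75.2 and 74.6 CPM in WT (-1.23 ± 0.23, edgeR adjusted p = 0.0162). Each of the 3 calls ended without KO replicate 3 (adjusted p = 0.172, 0.167 and 0.0584) and without KO replicate 4 (0.147, 0.194 and 0.378), and that of Irgm2 also without WT replicate 2 (0.057), all by edgeR. All 3 also ended in the 12-library fit (adjusted p = 1).

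Between stimulated and young fresh cells, 2 of 26 of these genes rose and 2 fell, where 2.81% of all genes were called. Tap2, a peptide transporter of antigen presentation, had 222 and 215 CPM in stimulated KO and 216 and 309 CPM in stimulated WT, against 49.5 and 57.1 CPM in young KO and 22.6 and 49.1 CPM in young WT cells (2.45 ± 0.38, edgeR adjusted p = 0.00258, and at most 0.0212 in the 14 alternatives). Psmb8, a subunit of the immunoproteasome, gave 1.10 ± 0.27 (edgeR adjusted p = 0.0365). Gbp5 and Iigp1 had -1.30 ± 0.29 and -1.43 ± 0.31 (edgeR adjusted p = 0.0233 and 0.022). Leaving out 1 library ended the calls of Psmb8, Gbp5 and Iigp1 in 5 to 7 of the 8 cases. Ifi44, Gbp5 and Iigp1 were thus called lower after stimulation, and the antigen-presentation genes Tap2 and Psmb8 higher.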

How the data were processed

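RNA from 12 mouse samples was made into QuantSeq 3′ libraries, per the labels' protocols. The authors deposited raw counts per gene symbol, and the submitters' processing notes name HISAT2 2.2.1, mm10, HTSeq 0.9.1 and DESeq2 1.34.0. For the annotation and the strand setting, the sources used here give nothing. The 39 genes, the other lists and the tests were chosen with earlier results of these data known.

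Counts were tested in R 4.3.3 with edgeR 4.0.16 (quasi-likelihood test, TMM sizes, filterByExpr with a minimum count of 10 and total of 15). The fit held 12 libraries in 6 groups with 6 residual degrees of freedom. Stimulated KO against WT used the 4 stimulated libraries with 2, because their replicates varied far less. P-values were adjusted by Benjamini-Hochberg over all genes, and a gene was called under 0.05. Of the members, 34 were tested in the first fit and 31 in the second; Oas2, Oasl1, Mx1, Mx2 and Xaf1 passed neither filter. Named were, per comparison, called members and the 5 smallest p-values averaging at least 5 CPM; the 6 highest members; and per other list up to 4 called genes. Values of further genes were chosen after being seen, to account for all members; 1 gene of the other lists is not reported here. Alternatives were RLE sizes, no filter, DESeq2 1.42.0, limma 3.58.1 voom with a weight per group, other libraries in the fit, a replicate block and each library left out. The tests were checked on simulated data with the spread of these groups. There edgeR gave every recovered change its right direction, but the share of false calls exceeded what the threshold implies, most in comparisons of fresh groups, and there more with DESeq2, so a call in fresh cells is less firm than its adjusted p. Promoters were RefSeq's (GRCm38.p6), and gene positions came from the GENCODE annotation of GRCm38. Floors cover counting error only.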

Additional observations from a re-analysis of the deposited data

How the results depend on the processing

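The count of members called depended on the setting. In stimulated KO against WT it was 1, 0 in the 12-library fit, and 0 to 1 with a library left out. For stimulated against young fresh cells it was 1, and 2 with RLE sizes, 3 without the filter, 5 with DESeq2, 4 with voom, 2 on the 8 young libraries alone and 0 to 1 with a library left out. For age it was 1, and 2 without the filter or with DESeq2, and 1 to 3 with a library left out (Ifitm3, Herc6 and Ifi27 without old WT replicate 2). In old KO against WT and in the genotype by age test it was 0 to 1 with a library left out, the 1 being Ifi27 without old WT replicate 2. With 1 library left out the sign turned for 4 genes. Adar ranged from -9.52 to 1.16 in young KO against WT and from -0.90 to 9.78 for genotype by stimulation. Oas3 ranged from 0 to 10.72 and from -10.06 to 0.66, fitted values against groups at 0 that are no bounds. In old KO against WT, Ifitm1 ranged from -1.28 to 0.44 and Rtp4 from -1.47 to 0.0665.

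No pairing of libraries by replicate number was seen: deviations of same-numbered libraries correlated at -0.0142 to 0.013. The wide spread between fresh replicates could hide a pairing, so this check could miss one. With the replicate block, members called were 3 for stimulation (Ifi44, Ifitm1 and Rtp4) and 2 for age (Ifitm3 and Adar), and 0 for both genotype interactions; all genes called were 468, 752, 0 and 28. Counts over all genes moved as well: for stimulated KO against WT 129 became 340 without the filter, 227 with voom and 0 in the 12-library fit; for young and old KO against WT 3 and 5 became 326 and 382 with DESeq2, 61 and 79 without the filter and 0 on the 4 libraries alone; for stimulation 325 became 786 with DESeq2, 712 with voom and 521 without the filter; for age 577 became 1390, 254 and 971, and 291 on the fresh libraries alone; for genotype by age 4 became 316 with DESeq2, 80 without the filter and 0 with voom. For genotype by stimulation 0 became 32 with DESeq2 and 10 without the filter. With 1 library left out, stimulated KO against WT gave 0 to 190. The 5 differences in module score moved by less than the spread of replicates under 3 alternatives each. The depth of 1600155 to 1963635 counts in young fresh libraries limits the genes under a few CPM there. The causes were not tested.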
